A study of Mus musculus with 12 samples.

Results

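The genes described here are Avp, Gnrh1, Sst, Npy, Cck, Pnoc, Tac1, Penk, Prok2 and Resp18, 10 of the 18879 genes in the cell by gene table of newborn mouse forebrain. They were named as neuropeptide genes with earlier results of these cells known, so their patterns over cell types and genotypes are given as a description and with no test. Of the 10, 8 encode precursors of small secreted peptides, Prok2 encodes a small secreted protein, and Resp18 encodes a protein of the secretory granules that carry peptides.

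Prefrontal cortex of mice labelled C57BL/6J (the methods name C57BL/6N) was dissociated at postnatal day 0 and sequenced cell by cell, in 3 genotypes of the neuronal transcription factor Myt1l that differ by a small germline deletion in the first protein-coding exon, which shifts the reading frame and gives an early stop codon. HET mice carry it on one allele and HOM mice on both, while WT mice carry none. Methanol-fixed cells of 2 animals per genotype were tagged with barcoding oligonucleotides and pooled into 1 library with 5′ end reads, and the 12 deposited samples are 4 runs of each of these 3 libraries. The tables used here assign no cell to an animal, so all values compare 3 libraries, with no replicate check. The mutant transcript is labelled as not degraded, so the level of Myt1l checks no label, and it was 449.7, 709.8 and 370.3 CPM in HET, HOM and WT cells. The study also prints these cell numbers beside the genotypes in another order, so HET, HOM and WT below mean the libraries labelled so in the deposited cell table.

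The libraries held 12072 HET, 13688 HOM and 10503 WT cells with medians of 1099, 1330 and 1045 molecules per cell. Xist was found in 2, 1 and 2121 cells and a Y-linked transcript in 15.5%, 15.2% and 5.74% of cells, so the WT library held cells of both sexes, unlike both mutant libraries. Only part of the cells could be placed by these transcripts. Cell barcodes shared between libraries numbered 240 for HET and HOM, 199 for HET and WT, and 215 for HOM and WT. Deposited names put the cells into 21 types, of which 18 had at least 100 cells in every library and are used here. Several are striatal or ganglionic eminence types although the tissue is labelled cortex. A cell with a value above 0 is called a carrier, and levels are depth-corrected values per 1000000 of all genes in the same cells (CPM). Behind each share of cells stands an exact Clopper-Pearson 95% interval for counting error alone.

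Neuropeptides are cut from larger precursors inside secretory granules. Prohormone convertases cleave at paired basic residues, a carboxypeptidase trims the ends, and a terminal glycine is often turned into an amide. In the forebrain somatostatin and neuropeptide Y mark interneurons that come from the medial ganglionic eminence. Enkephalin and substance P mark the indirect and direct output pathways of the striatum, and vasopressin and gonadotropin-releasing hormone belong to scattered neurons of the hypothalamus and basal forebrain.

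To show what these transcripts encode, the coding stretch of 1 peptide of each of the 8 precursors was read from GENCODE M21 transcripts on mm10. Capitals mark the codons of the basic residues where the precursor is cut, with the preceding glycine codon where the peptide is amidated.
Avp: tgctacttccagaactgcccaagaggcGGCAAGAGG
Gnrh1: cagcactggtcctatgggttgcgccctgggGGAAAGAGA
Sst: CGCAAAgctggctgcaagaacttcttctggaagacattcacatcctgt
Npy: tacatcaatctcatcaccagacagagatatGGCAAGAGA
Cck: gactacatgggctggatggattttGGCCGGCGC
Pnoc: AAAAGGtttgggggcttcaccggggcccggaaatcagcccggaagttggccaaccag
Tac1: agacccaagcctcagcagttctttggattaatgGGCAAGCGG
Penk: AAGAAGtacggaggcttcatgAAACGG

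The vasopressin stretch lies in exon 1 of 3 of Avp (chr2:130582437-130582472, minus strand) and that of gonadotropin-releasing hormone in exon 2 of 4 of Gnrh1 (chr14:67746409-67746447, plus strand). Somatostatin-14 lies in exon 2 of 2 of Sst (chr16:23889732-23889779, minus strand). The last part of neuropeptide Y crosses an intron between exons 2 and 3 of the 4 exons of Npy (chr6:49823760-49827501, plus strand). The cholecystokinin octapeptide lies in exon 3 of 3 of Cck (chr9:121490098-121490130, minus strand) and nociceptin in exon 3 of 4 of Pnoc (chr14:65404842-65404898, minus strand). Substance P lies in exon 3 of 7 of Tac1 (chr6:7556732-7556773, plus strand) and the first Met-enkephalin in exon 2 of 2 of Penk (chr4:4134328-4134354, minus strand). All of these stretches are coding sequence. The opioid core, a tyrosine, a pair of glycines and a phenylalanine, occurred 7 times in the Penk precursor and 0 times in the other 9 proteins, nociceptin with its phenylalanine start included. Prok2 lies at chr6:99711299-99726392 and Resp18 at chr1:75272199-75278415, both on the minus strand.

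Which cells carried these genes differed between genes. Npy had 5339 carriers (14.7% of 36263 cells), Cck 2245 (6.19%) and Sst 1476 (4.07%), and these had carriers in every type. Pnoc had 481 carriers, Resp18 435, Penk 422, Prok2 300 and Tac1 201. Avp had 114 and Gnrh1 62. Most carriers held a value of 1, from 54.7% of them for Npy to 89.7% for Prok2, so a share of cells depends on depth. The part of free RNA in these shares was not tested. Microglia, recognised by C1qa in 62.6% of HET, 63.9% of HOM and 63.6% of WT cells, and Endothelial1 cells should lack these precursors, and their shares are taken as the background.

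**Figure D1:**
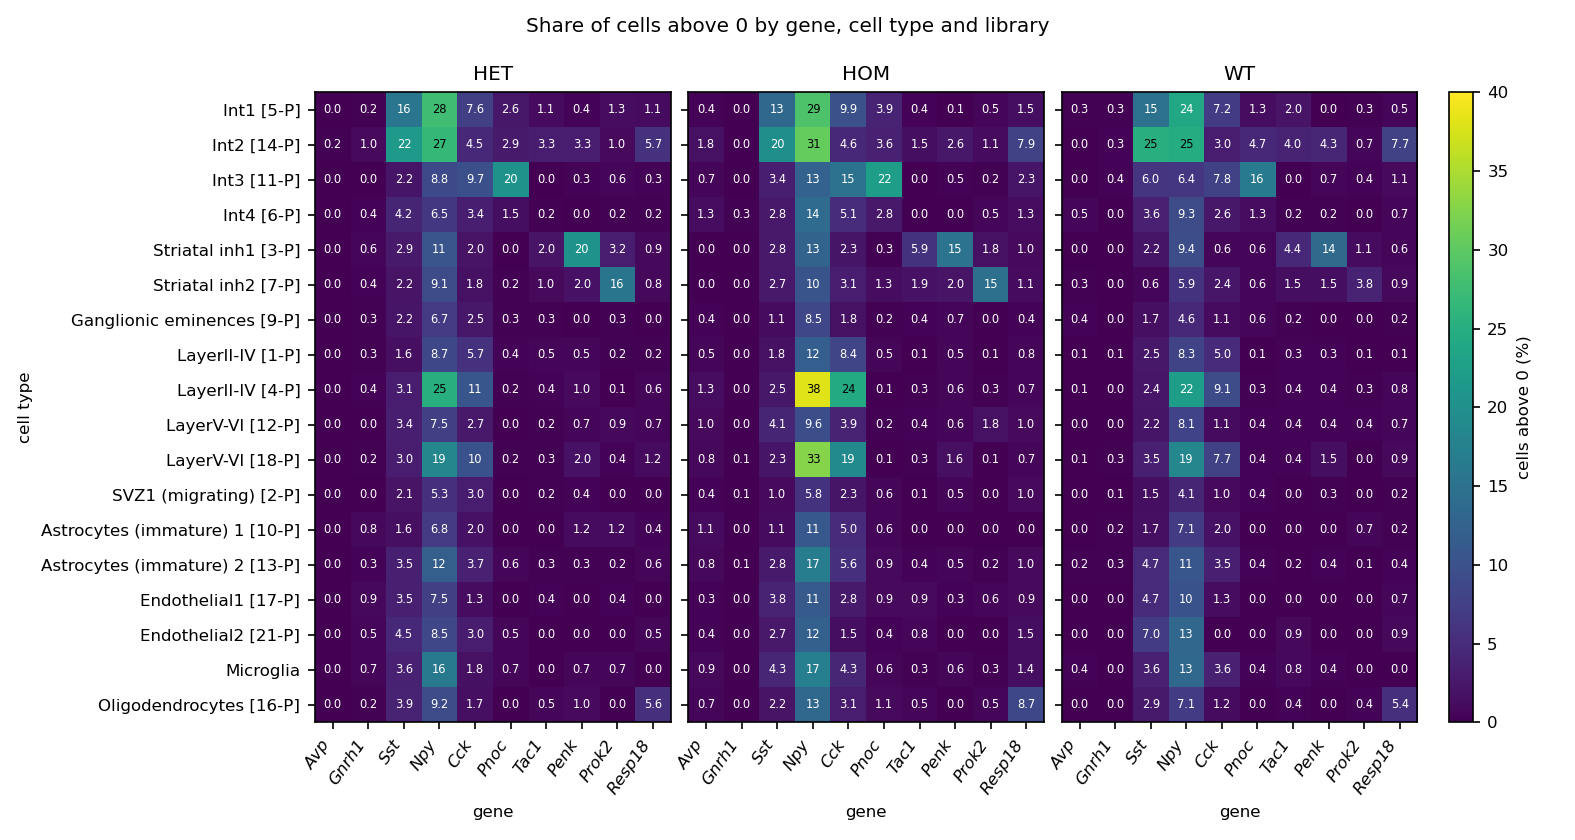
Share of cells above 0 for the 10 genes (columns, grouped by role) in the 18 types that had at least 100 cells per library (rows), for HET, HOM and WT, with the percentage printed in each field. Npy is above 4% in every type, while Pnoc, Penk and Prok2 each stand out in 1 type.

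A type counts here as a carrier type of a gene when its mean share over the 3 libraries is at least 5%, and the top type always counts. That gave 18 carrier types for Npy, 5 for Cck, 2 each for Sst and Resp18, and 1 each for the other 6 genes. Read against the background, far fewer remained. Shares whose interval lay above those of both Microglia and Endothelial1 in all 3 libraries were found in 3 types for Npy (LayerII-IV [4-P], Int2 and Int1), in 2 for Sst (Int2 and Int1), and in 1 each for Cck (LayerII-IV [4-P]), Pnoc (Int3), Penk (Striatal inh1) and Resp18 (Int2). Prok2 in Striatal inh2 lay above it in HET and HOM and not in WT. In WT 13 of 340 cells carried Prok2 (2.05 to 6.45), beside 0 of 247 Microglia and 0 of 149 Endothelial1 cells (0 to 2.445). Tac1 lay above the background in 1 library, and Avp and Gnrh1 in none.

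Levels were compared with WT where the sum over both libraries reached 50, and 2-fold was the only call. Of 29 measured gene by carrier type pairs, 3 were at least 2-fold higher in HET cells, beside 0.654% of 75383 pairs of all genes and types, and 0 were at least 2-fold lower, beside 1.29%. Of 32 measured pairs, 9 were at least 2-fold higher in HOM cells, beside 1.42% of 78506 pairs, and 0 were at least 2-fold lower, beside 2.89%. The median log2 ratio was 0.19 for HET and 0.73 for HOM. Nothing is read from these counts, because the genes were chosen with this contrast known and Npy alone gave 5 of the 9 HOM pairs. In the 9 pairs above background, 1 was higher in HET and 2 were higher in HOM. Over all types, 3 of 40 HET pairs and 14 of 43 HOM pairs were past 2-fold, 10 of the HOM pairs higher and 4 lower.

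**Figure D2:**
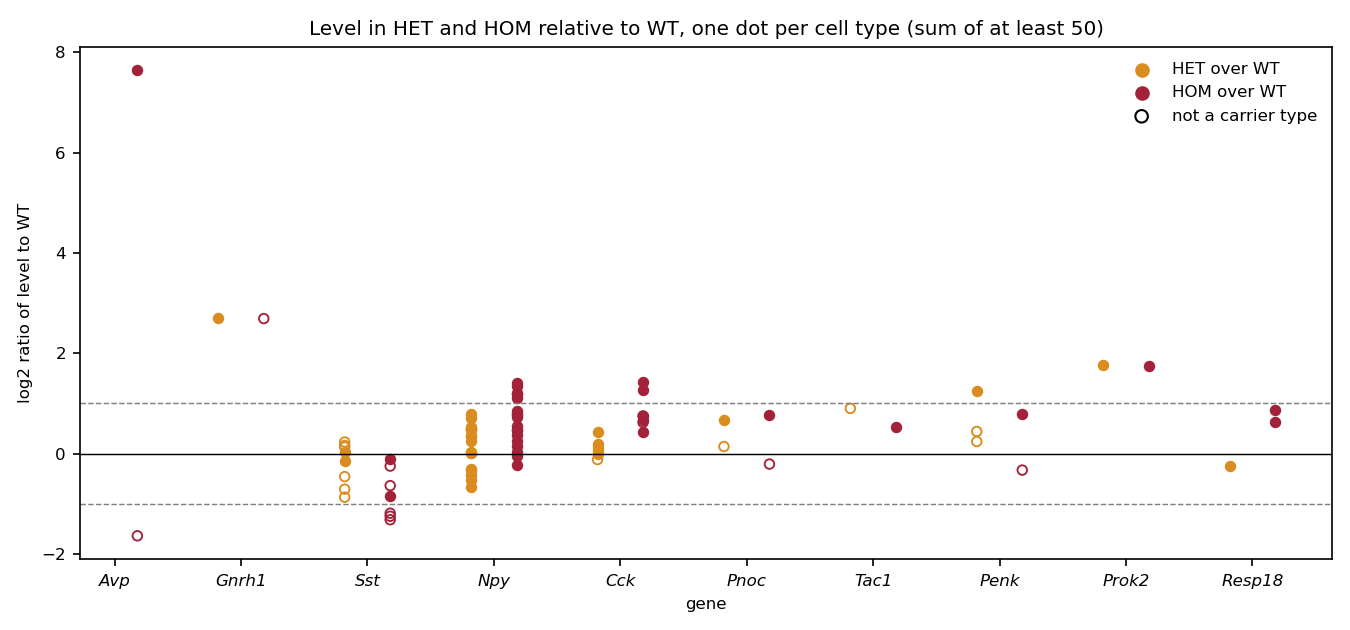
log2 ratio of the level in HET (orange) and HOM (red) cells to the level in WT cells, 1 dot per cell type with a sum of at least 50, filled for carrier types and open for others. Dashed lines mark 2-fold, and the highest dot, Avp in Int2 at 7.64, sets 2 HOM cells against a floor of 3 counts in place of 0 in WT.

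Avp and Gnrh1 were carried at high values by single cells only. Avp encodes vasopressin, which controls water balance and social behaviour, and its neurophysin carrier. In HOM, 2 Int2 cells held 856 and 359 of Avp, 57.0% and 28.6% of everything counted in them, and together they made 88.95% of the library's Avp. Both also carried Resp18 (12 and 5) and Pcsk1n (32 and 5), which encodes an inhibitor of prohormone convertase 1. One held a value of 1 of Otp, a factor of hypothalamic neuroendocrine neurons, neither held Sim1 or Oxt, and Gad1 and Gad2 were at 0 in both. Otp was found in 0.982% of HOM Int2 cells and in 0 HET and 0 WT Int2 cells. The other cells at 5 or more were 1 LayerII-IV [1-P] cell of HOM at 31 and 1 LayerV-VI [18-P] cell of WT at 46.

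Low values of Avp, from 1 to 4, were found in 1 HET cell, in 94 HOM cells of 17 types and in 15 WT cells of 9 types. The library with both very high cells was also the one with low values in nearly every type. The part of free RNA in these low values was not tested. In Int2 the sum of Avp was 2 in 488 HET cells, 1227 in 611 HOM cells and 0 in 299 WT cells. With the WT sum set to a floor of 3 counts the HOM level was 198.8-fold higher, and 99.0% of the HOM sum lay in 2 cells. Because high values of Avp came in single cells, 1 such cell more or less would change this fold, so it is no lower bound. The 0 of 299 WT cells allows a share of cells with a value above 0 of up to 1.00% by 3 counts of the total, and of up to 1.23% by the exact interval.

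Gnrh1 encodes the peptide that drives the pituitary gonadotropins. One HET Int2 cell held 217 of Gnrh1, 16.5% of its total, in a deep cell of 11042 molecules that also held 3 of Resp18 and 9 of Pcsk1n. One HOM cell named Astrocytes (immature) 2 held 64, and 1 WT Int2 cell held 21. Each library thus had exactly 1 cell at 5 or more. Low values were found in 40 HET cells of 15 types, 6 HOM cells of 4 types and 13 WT cells of 7 types, most widely in the library with the highest single cell. In Int2 the level was 426.5 CPM in HET, 0 in HOM and 64.96 CPM in WT, and the log2 ratio of HET to WT of 2.71 compares 1 high cell with 1 high cell. The 0 of 611 HOM cells allows such a share of up to 0.491% by 3 counts and 0.602% by the exact interval.

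**Figure D3:**
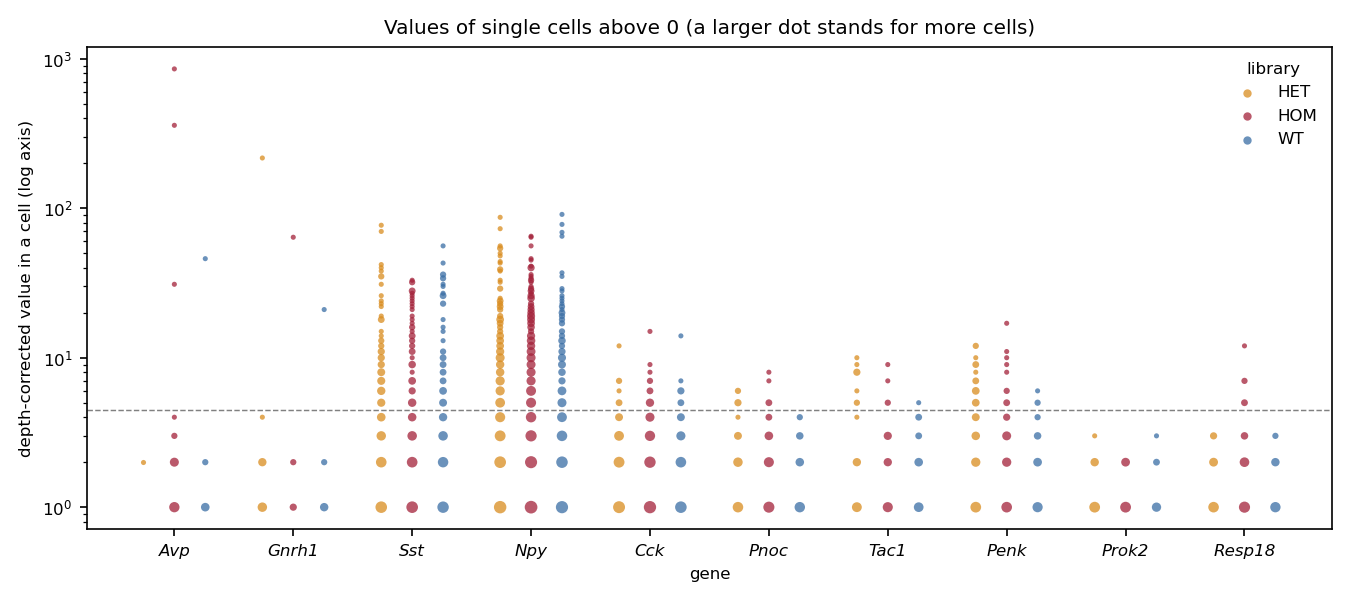
Depth-corrected value of every carrier (log axis) for each gene, with HET, HOM and WT side by side and larger dots for more cells at the same value; the dashed line separates values of 5 or more. Avp and Gnrh1 have a few cells far above all others (up to 856 and 217), Sst and Npy a continuous range up to 77 and 91, and Prok2 nothing above 3.

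Sst and Npy were found together in cells of Int2 and Int1, types named as interneurons. Sst encodes somatostatin, an inhibitory peptide, and was highest in Int2, where 21.5% of HET cells (17.9 to 25.4), 20.0% of HOM cells (16.9 to 23.4) and 25.1% of WT cells (20.3 to 30.4) were carriers. Microglia gave 3.60%, 4.34% and 3.64% at a median depth of 760, 818.5 and 741 molecules, close to that of Int2 (761, 759 and 806). The level of Sst in Int2 was 1704 CPM in HET, 1043 CPM in HOM and 1881 CPM in WT. These shares overlap in their intervals, while the HOM level was lower by 0.85 on the log2 scale and within 2-fold. In Int1 the share was 15.7% in HET, 13.3% in HOM and 15.1% in WT, and the levels were 362.7, 330.8 and 356.3 CPM.

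Cells at 5 or more of Sst held 56.3% of all its counts and lay mainly in the same types. In Int2 they were 9.43% of HET, 6.22% of HOM and 9.36% of WT cells, and the highest value was 77, 33 and 56. Outside Int1 and Int2 the share of carriers did not rise above the background in any library. The level in these other types was lower in HOM by 1.19 in Astrocytes (immature) 2, by 1.32 in Int3 and by 1.25 in LayerV-VI [18-P] on the log2 scale. Over all types, Int1 and Int2 included, the HOM level was below WT in 7 of 7 measured, and the HET level was above WT in 4 and below it in 4 of 8.

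The names Int1 and Int2 were checked against marker genes. Int1 carried Lhx6, a factor of medial ganglionic eminence interneurons, in 54.3% of HET, 63.8% of HOM and 48.9% of WT cells, and Gad2, which makes GABA, in 48.9%, 48.8% and 42.5%. Int2 carried them in far fewer cells, Gad2 in 12.9%, 11.6% and 14.7% and Lhx6 in 12.5%, 11.0% and 10.7%, at less depth. These markers thus do not settle that Int2 cells are interneurons. Haemoglobin Hbb-bs, a sign of blood RNA, was found in 32.0%, 47.6% and 40.8% of Int2 cells and in 32.7%, 49.4% and 39.7% of Microglia. The part of blood RNA in the Int2 values was not tested. Within Int2, carriers of Sst held several markers of that lineage more often than the other Int2 cells did. Sox6 was found in 20.5% of 302 carriers and 3.28% of 1096 other cells, Lhx6 in 21.9% and 8.58%, and Gad1 in 23.2% and 12.6%, at a median of 887.5 and 756.5 molecules. Each of these 3 was higher in carriers in 3 of 3 libraries. Gad2 was found in 13.9% and 12.4%, Slc32a1 in 12.3% and 7.85%, and Satb1 in 6.95% and 3.38%, each higher in carriers in 2 of 3 libraries. Nkx2-1 was in 1.32% and 1.37%.

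Npy encodes neuropeptide Y, an abundant peptide of interneurons that also regulates feeding. Of the Int2 cells with Sst, Npy was found in 60.0% of 105 in HET, 61.5% of 122 in HOM and 50.7% of 75 in WT. Of the Int2 cells without Sst, it was found in 17.5%, 22.9% and 16.1%. In Int1 the shares were 44.0%, 51.4% and 33.9% of Sst carriers and 24.8%, 25.5% and 22.0% of the other cells, and there the WT intervals overlap. Among Int2 cells of 1000 to 3000 molecules, Npy was the gene with the largest excess in Sst carriers, at 70.2% of 94 carriers and 19.6% of 255 others. Sox6 and Mpped1 came next. Over the 18 types the gene most like Sst in level was Lhx6 (Pearson r = 0.82), followed by Dgkg and Reln, as a description over 18 types that share the same 3 libraries.

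Npy was not confined to the types named as interneurons. Its highest mean share was in LayerII-IV [4-P], a type of upper-layer excitatory neurons that carried Neurod6 in 38.6% of HET, 42.8% of HOM and 39.1% of WT cells and Gad1 in 0.877%, 1.04% and 0.888%. There Npy was found in 25.1% of 1368 HET cells (22.8 to 27.5), 38.0% of 676 HOM cells (34.3 to 41.8) and 22.3% of 788 WT cells (19.5 to 25.4), at median depths of 787, 861 and 741 molecules. The level was 720.7 CPM in HET, 1878 CPM in HOM and 713.2 CPM in WT, a log2 ratio of 0.01 for HET and 1.40 for HOM. The HOM interval lay above both others, and the HET and WT intervals overlapped. Cells at 5 or more were 4.31% of HET, 11.5% of HOM and 3.43% of WT cells. The ratio for HOM was within 2-fold, at 0.63 or more, in cells of 1000 to 3000 molecules, in cells of at least 2000 molecules and without cells at 5 or more.

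LayerV-VI [18-P], the deep-layer type with the most cells, had a like order of libraries. Npy was found in 18.5% of HET (16.7 to 20.5), 32.8% of HOM (30.4 to 35.2) and 18.6% of WT cells (16.6 to 20.8), and the level was 582.7, 1163 and 459.2 CPM. The HET and WT intervals overlapped those of Microglia (12.06 to 21.05 and 9.378 to 18.25), so only the HOM share lay above the background there. The log2 ratio was 0.34 for HET and 1.34 for HOM, and for HOM it was 0.99 at 1000 to 3000 molecules, 0.65 without cells at 5 or more and 0.16 in Y-linked cells. In those cells the share was 18.9% of 190 HET, 31.0% of 184 HOM and 33.3% of 33 WT cells, so no difference between HOM and WT was detectable in those cells, of which WT had few. In LayerII-IV [4-P] the same cells gave 31.4% of 105 HET, 36.9% of 65 HOM and 33.3% of 9 WT cells. Median depths of Y-linked cells differed, at 1395, 2434 and 2108 molecules in LayerV-VI [18-P] and 936, 914 and 1543 in LayerII-IV [4-P]. Sex and genotype cannot be told apart in the pooled values of HET or HOM against WT.

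In Int2 and Int1 the Npy levels of the 3 libraries were closer. In Int2 Npy was found in 26.6% of HET, 30.6% of HOM and 24.7% of WT cells with levels of 2048, 1478 and 1726 CPM, and in Int1 in 27.8%, 28.9% and 23.8%. Microglia gave 16.2%, 17.3% and 13.4%, and Endothelial1 7.52%, 11.4% and 10.1%, so Npy had the highest background of the 10 genes. Cells at 5 or more separated the types better. They were 8.81% of HET, 7.69% of HOM and 6.69% of WT Int2 cells and 1.08%, 0.867% and 0.810% of Microglia. Npy was also at least 2-fold higher in HOM in Int3 (1.18), Oligodendrocytes (1.20) and Striatal inh2 (1.11), types at background level. Over the alternatives it stayed past 2-fold in Oligodendrocytes (1.01 to 1.37) and not in Int3 or Striatal inh2 (each down to 0.76). Its level was above WT in 16 of 18 types in HOM and 12 of 17 in HET. Over all cells the share was 13.8% in HET, 18% in HOM and 11.5% in WT, and 13.1%, 18.5% and 12% when every library was given the same mix of types.

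Cck encodes cholecystokinin, a peptide of excitatory neurons and of basket interneurons. It followed Npy in the excitatory types. In LayerII-IV [4-P] it was found in 10.7% of HET (9.15 to 12.5), 24.4% of HOM (21.2 to 27.8) and 9.14% of WT cells (7.22 to 11.4), beside 1.80%, 4.34% and 3.64% in Microglia. Levels were 138.3, 372.7 and 137.9 CPM, a log2 ratio of 0.00 for HET and 1.43 for HOM. In LayerV-VI [18-P] it was found in 10.1%, 19.2% and 7.70% of cells at 150.1, 271.5 and 112.5 CPM, a log2 ratio of 0.42 and 1.27. The HOM share stood above HET and WT in both types by more than the intervals, and HET and WT were close in the first.

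These Cck differences were also read at like depth and in cells of like sex. In cells of 1000 to 3000 molecules the LayerII-IV [4-P] shares were 12.7%, 28.0% and 11.3%, while the log2 ratio of HOM to WT in LayerV-VI [18-P] was 0.95. In cells of at least 2000 molecules that ratio was 0.87 in LayerII-IV [4-P], so each type was within 2-fold in one depth class. In Y-linked cells of LayerV-VI [18-P] the shares were 11.1%, 20.7% and 21.2%, with 7 of 33 WT cells, and the log2 ratio of HOM to WT there was 0.29. In Y-linked cells of LayerII-IV [4-P] they were 13.3% of 105 HET, 27.7% of 65 HOM and 33.3% of 9 WT cells. Y-linked cells were not of like depth, with medians of 1395 HET, 2434 HOM and 2108 WT molecules in LayerV-VI [18-P]. In LayerII-IV [4-P] their medians were 936, 914 and 1543 molecules. No excess of HOM over WT was thus detectable in Y-linked cells of either type, of which WT had few. Without that restriction the HOM level was above WT in 7 of 7 measured types, from 0.43 to 1.43 on the log2 scale, and past 2-fold in those 2. In Int3, Int1 and LayerII-IV [1-P] the share was 9.75%, 7.65% and 5.71% in HET, 15%, 9.88% and 8.39% in HOM, and 7.80%, 7.16% and 4.99% in WT.

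**Figure D4:**
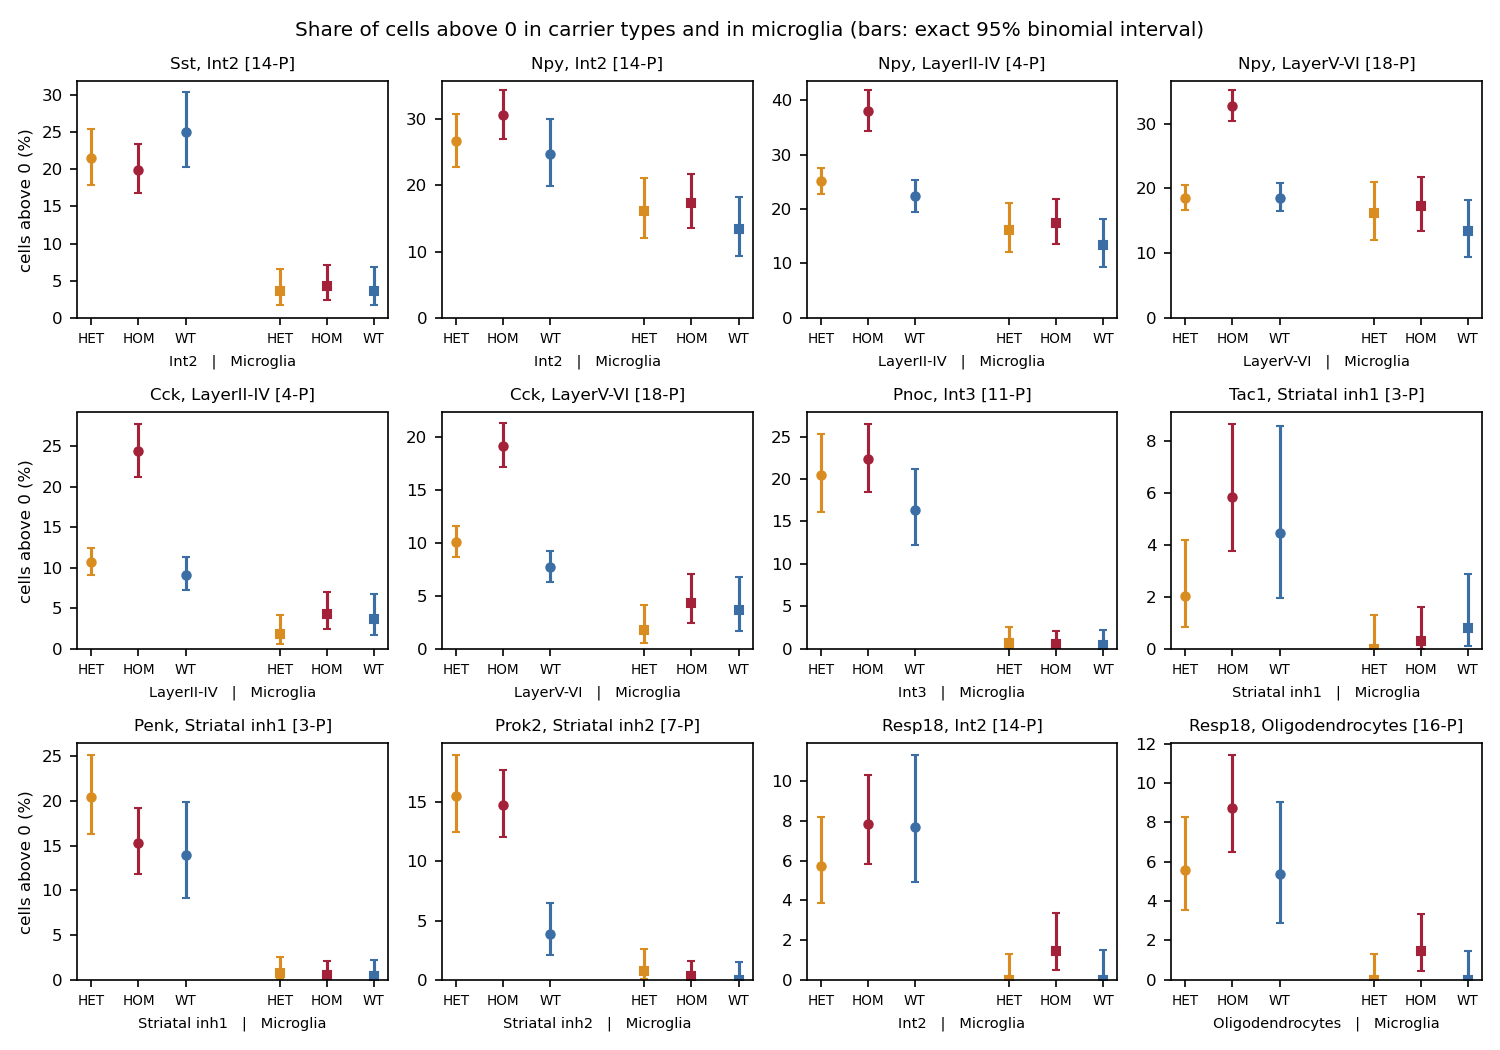
Share of cells above 0 with exact 95% binomial intervals for HET, HOM and WT in carrier types (circles) and in Microglia as background (squares). HOM stands apart for Npy and Cck in both excitatory types shown (38.0% and 24.4% in LayerII-IV [4-P]), while WT stands apart for Prok2 in Striatal inh2 (3.82%).

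Cells with Cck also carried Npy more often. In LayerII-IV [4-P] Npy was found in 38.1% of 147 HET, 51.5% of 165 HOM and 37.5% of 72 WT cells with Cck, and in 23.5%, 33.7% and 20.8% of cells without it. Carriers were deeper, with medians of 1042, 1530 and 937.5 molecules beside 773, 775 and 723.5. At 1000 to 3000 molecules the shares were 41.9%, 54.5% and 50% of carriers and 27.4%, 45.1% and 31.9% of the others, and their intervals overlapped in each library. The genes most in excess among Npy carriers of that type were Prkar2b, Npdc1 and Ly6h, and Gde1 and Atp2b2 were among those most in excess in Cck carriers. In level over the 18 types, Npy was most like Gabra5 (r = 0.88) and Cck most like Galnt14 (r = 0.88).

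Pnoc encodes the precursor of nociceptin, an opioid-like peptide. It was carried by Int3, in 20.4% of HET (16.1 to 25.3), 22.3% of HOM (18.5 to 26.5) and 16.3% of WT cells (12.2 to 21.1), beside 0.719%, 0.578% and 0.405% in Microglia, at median depths of 1178, 1459 and 1700 molecules in Int3. The level was 289.0, 308.2 and 181.4 CPM, and the log2 ratio of 0.67 for HET and 0.77 for HOM was within 2-fold. Int3 carried Adarb2, a marker of interneurons from the caudal ganglionic eminence, in 50.9%, 54.0% and 56.0% of cells. Carriers of Pnoc had more of these markers than other Int3 cells, Adarb2 in 78.0% of 209 carriers and 47.5% of 830 others, Htr3a in 45.5% and 19.9%, and Prox1 in 51.7% and 32.3%. Carriers were also deeper, at a median of 3108 and 1140 molecules. At 1000 to 3000 molecules the genes most in excess were Vstm2a and Cxcl14, each in 44.3% of 70 carriers and 16.4% of 238 others, and then Cntfr. Htr3a and Prox1 were also the genes most like Pnoc in level (r = 0.85 and 0.82).

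Penk and Tac1 were not found together in any cell of the striatal type Striatal inh1. Penk encodes the precursor of the enkephalins, used by neurons of the indirect striatal pathway, and Tac1 encodes that of substance P, used by the direct pathway. Of 915 Striatal inh1 cells, 155 carried Penk and 38 carried Tac1, and 0 carried both. The 0 of 155 Penk carriers allows a share with a Tac1 value of up to 1.94% by 3 counts and 2.35% by the exact interval, while Tac1 was found in 5.0% (3.56 to 6.80) of the 760 cells without Penk. The libraries contributed 70 HET, 60 HOM and 25 WT carriers of Penk and 7, 23 and 8 of Tac1, so within a library the exact limit was 5.13%, 5.96% and 13.7%. Each of these limits lay within or above the interval of Tac1 in the cells without Penk of that library, so the separation was not detectable library by library at this depth.

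Markers of the output pathways differed between both groups of carriers. Ebf1, a factor of direct pathway neurons, was found in 0.645% of Penk carriers (0.016 to 3.54), 68.4% of Tac1 carriers (51.4 to 82.5) and 15.9% of the 722 cells with neither. Isl1, another factor of that pathway, was found in 3.23%, 34.2% and 17.7%. Drd2, the dopamine receptor of indirect pathway neurons, was found in 14.8% of Penk carriers (9.65 to 21.4), in 0 of 38 Tac1 carriers and in 3.46% of the others. Adora2a, the adenosine receptor of the same neurons, was found in 17.4%, 0 and 12.3%. Gpr6, another receptor of these neurons, was found in 3.23%, 0 and 4.43%, so it was not higher in Penk carriers. Foxp1, common to striatal output neurons, was found in 59.4%, 92.1% and 72.0%. Penk carriers had a median of 3289 molecules and Tac1 carriers 3270, whereas the cells with neither had 1519, so only both groups of carriers were of like depth.

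**Figure D5:**
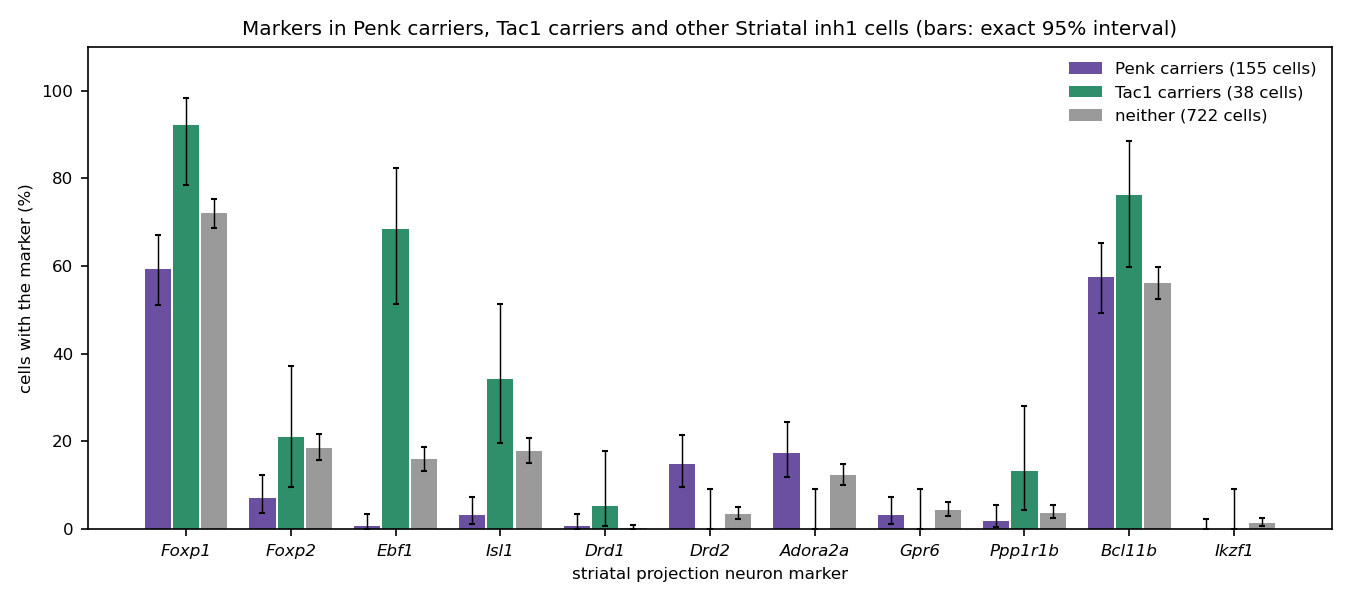
Share of Striatal inh1 cells with each striatal marker gene, for 155 Penk carriers, 38 Tac1 carriers and 722 cells with neither, all libraries joined; error bars are exact 95% intervals. Ebf1 is in 68.4% of Tac1 carriers and 0.645% of Penk carriers, and Drd2 and Adora2a are at 0 in Tac1 carriers.

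The share of Penk in Striatal inh1 was 20.5% in HET (16.3 to 25.1), 15.3% in HOM (11.9 to 19.2) and 13.9% in WT (9.19 to 19.8), beside 0.719%, 0.578% and 0.405% in Microglia. The type was deeper than Microglia, with medians of 1596, 2468 and 1573 molecules, and its intervals overlap. The level was 503.5, 366.9 and 213.5 CPM, a log2 ratio of 1.24 for HET and 0.78 for HOM. The HET ratio was 0.65 without cells at 5 or more, which were 4.68% of HET, 2.29% of HOM and 1.11% of WT cells. Tac1 was found in 2.05%, 5.85% and 4.44% of Striatal inh1 cells and in 3.28%, 1.47% and 4.01% of Int2 cells. In Striatal inh1 the Tac1 intervals of HET (0.827 to 4.17), HOM (3.75 to 8.65) and WT (1.94 to 8.57) overlapped.

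Prok2 encodes prokineticin 2, a secreted protein that attracts migrating neuroblasts to the olfactory bulb. It was carried by Striatal inh2, in 15.5% of 503 HET cells (12.5 to 19.0), 14.7% of 639 HOM cells (12.1 to 17.7) and 3.82% of 340 WT cells (2.05 to 6.45), beside 0.719%, 0.289% and 0 in Microglia. Both mutant shares lay above the WT interval and overlapped each other. The level was 118.7, 116.6 and 34.87 CPM, a log2 ratio of 1.77 for HET and 1.74 for HOM, from sums of 82, 104 and 16. Over the 7 alternatives that could be computed the ratios ran from 1.72 to 1.88 for HET and from 1.71 to 1.89 for HOM. The window of 1000 to 3000 molecules and Y-linked cells were not among them, as their sums were too low. There the HET, HOM and WT levels were 98.01, 94.98 and 34.68 CPM in the window and 128.6, 105.3 and 46.33 CPM in Y-linked cells. Median depth of the type was alike, at 3107, 3261 and 3054 molecules. In cells with a Y-linked transcript the shares were 18.9% of 159, 14.1% of 199 and 4.35% of 69, and in WT cells with Xist 1 of 65.

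The share of Isl1 cells in Striatal inh2 differed along with Prok2. Prok2 carriers were mostly Isl1 cells, at 91.9% of 185 carriers and 44.6% of 1297 others, and Foxp1 was in 63.2% and 27.2%. Foxp2 ran the other way, in 46.5% of carriers and 62.8% of the others, and was in 62.6% of HET, 58.4% of HOM and 62.6% of WT cells of the type. Ebf1 was in 0.541% of carriers and 3.39% of the others. At 1000 to 3000 molecules the genes most in excess were Isl1, in 90.3% of 62 carriers and 43.3% of 455 others, Npy1r, a receptor of neuropeptide Y, in 64.5% and 24.8%, and Lmo4. Isl1 itself was found in 56.3% of HET (51.8 to 60.7), 54.1% of HOM (50.2 to 58.1) and 35.3% of WT cells (30.2 to 40.6) of the type. Among cells with Isl1, Prok2 was found in 25.1% of 283 HET (20.2 to 30.6), 24.9% of 346 HOM (20.4 to 29.8) and 10.8% of 120 WT cells (5.90 to 17.8). Among cells without Isl1 it was found in 3.18%, 2.73% and 0 of 220. The difference was thus also present within Isl1 cells, and fewer Isl1 cells were in the WT type. In Npy1r cells Prok2 was found in 26.9% of 182 HET (20.6 to 34.0) and 33.1% of 175 HOM cells (26.2 to 40.6). In WT it was found in 15.9% of 63 Npy1r cells (7.88 to 27.3), an interval that overlapped both others. Without Npy1r the shares were 9.03%, 7.76% and 1.08%, with the WT interval (0.224 to 3.13) below both others. Isl1 was the gene most like Prok2 in level over the types (r = 0.83).

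Resp18 encodes an endocrine granule protein and is no peptide precursor. It was carried by Int2, in 5.74% of HET (3.85 to 8.19), 7.86% of HOM (5.85 to 10.3) and 7.69% of WT cells (4.94 to 11.3), and by Oligodendrocytes, in 5.58% (3.57 to 8.26), 8.74% (6.52 to 11.4) and 5.39% (2.90 to 9.05). In Microglia it was found in 0, 1.45% and 0 of cells. The intervals of the libraries overlap in both types. Levels were 78.76, 142.8 and 92.80 CPM in Int2, and 37.9% of the HOM sum there lay in 5 cells at 5 or more, which include both Avp cells above. Resp18 carriers in Int2 carried Gad1 in 23.2% of 99 and the other 1299 cells in 14.2%, and Slc32a1, the vesicular GABA transporter, in 22.2% and 7.78%. Dlx1 and Dlx2, factors of GABAergic neurons, ran the other way, in 9.09% and 3.03% of carriers and in 12.9% and 6.08% of the others. Sst carriers held Resp18 in 6.67%, 4.10% and 4.0%, and Int2 cells without Sst in 5.48%, 8.79% and 8.93%, so carriers of Sst had less of it in HOM and WT, within overlapping intervals.

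Several members in 1 cell were rare outside a few types. At least 2 of the 10 were found in 19.3% of HET, 17.8% of HOM and 19.7% of WT Int2 cells and in 12.1%, 11.5% and 7.67% of Int1 cells. In LayerII-IV [4-P] they were found in 6.21%, 14.6% and 5.71%, and in LayerV-VI [18-P] in 4.26%, 9.39% and 4.44%. In LayerII-IV [1-P] they were found in 0.942%, 2.52% and 1.06%, and in LayerV-VI [12-P] in 1.6%, 3.54% and 0.733%. In Int3 the shares were 6.0%, 12.3% and 5.0%. The HOM library was the highest in each of these excitatory types and in Int3, and not in Int2. The most in a single cell was 5, in a HOM Int2 cell. Promoter windows of 300 bases from RefSeq on GRCm38.p6 matched 7 of the 10 genes, and AAAGTT, the motif of the MYT1 family, on either strand was in 0 of 7, beside 14.05% of 32851 windows. The cyclic AMP response element TGACGTCA was in that of Sst alone, beside 1.79%.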

How the data were processed

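Reads were aligned by the authors with Cell Ranger 4.0.0 to mm10 and processed in Seurat 4.0 and Scanpy. They filtered cells on detected genes and mitochondrial share, removed blood cells, and named most cell types by transfer from a reference atlas. Microglia and blood cells, whose transferred names had a low probability, were named by marker genes. Doublet treatment was not stated in the sources used here, and none was called. The deposited matrix has whole numbers of a score unit. Their totals per cell ran from 825 to 1952 although the cells had 499 to 17602 molecules, with the same number in 617 of 36263 cells, so they were read as corrected for depth and no count model was fitted. From the deposited cell table came the count of molecules of each cell, the percent of mitochondrial reads and, as a fraction, the cell type probability. Comparison tables of the authors (log2 fold changes, p-values and fractions of cells within subpopulations) were not used.

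Values were summed per library and cell type over cells of at least 100 per library, and a gene was measured where the sum of both libraries reached 50. The genes and lists were chosen with earlier results of these data known. Text names all 10 genes, up to 4 genes of each list by share, the 3 genes most like each in Pearson r of log2(CPM + 1) among genes with a total of at least 200, and the 3 most in excess in carriers (at least 50 carriers of 1000 to 3000 molecules). Values of some genes taken by these rules are left out. Other choices tried were scaling, minimum sums, depth windows, type probability and Y-linked cells. With 1 library per genotype no test was run. Python 3.11.15, numpy 2.4.6, pandas 2.3.3, scipy 1.17.1 and matplotlib 3.10.9 were used.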

Additional observations from a re-analysis of the deposited data

Results flagged for a closer look

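The level of Avp in HOM relative to WT ran in opposite directions in 2 cell types. It was higher in Int2, where the log2 ratio of 7.64 was computed with a floor of 3 counts in WT, and lower in LayerV-VI [18-P], at -1.64. The first rests on 2 HOM cells at 856 and 359, and the second on 1 WT cell at 46. The difference between both types was not tested, as each rests on single cells of 1 library.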

How the results depend on the processing

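No paired analysis was possible because each genotype is 1 library and its runs are not replicates. Of 468 recomputed log2 ratios, 14 were no longer past 2-fold and 15 came to be past it. The sign was opposite in 34, of which 30 were within 2-fold before and after, and none of a ratio reported past 2-fold. The other 4 were past 2-fold in the opposite direction: Sst in Int1, HOM, 1.01 in Y-linked cells, Npy in LayerV-VI [18-P], HET, -1.07 in Y-linked cells, Npy in Microglia, HET, -1.08 at a type probability of at least 0.8, and Npy in Astrocytes (immature) 2, HOM, -2.20 in cells of at least 2000 molecules. The cause was not tested. The 3 of 29 measured HET pairs past 2-fold became 1 of 12 in cells of 1000 to 3000 molecules, 5 of 18 in cells of at least 2000 molecules, 5 of 28 at a probability of at least 0.8 and 7 of 29 at 1.5-fold. The 9 of 32 HOM pairs became 5 of 14 at a minimum sum of 200, 5 of 16 in cells of 1000 to 3000 molecules, 4 of 9 in Y-linked cells and 20 of 32 at 1.5-fold, so fewer pairs could be measured in most of these. Chosen after seeing the data were leaving out cells at 5 or more of the gene, which gave 1 of 27 for HET and 5 of 30 for HOM, and keeping only types above background, which gave 1 of 9 and 2 of 9. The other settings kept both counts within 1.5 times. Of 240 shares per type, 111 moved beyond their counting interval, and of 90 shares of all cells 48 did. Most carriers of each gene held a value of 1, from 54.7% for Npy to 89.7% for Prok2, which limits what a share can show.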

Other observations

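Of a list of 41 genes of other neuropeptide precursors and further secreted signals, 32 were in the matrix and 5 reached 5% of cells in any type. The highest were Edn1, which encodes endothelin 1, a constrictor of vessels, in 8.41% of HET, 26.3% of HOM and 14.1% of WT Endothelial1 cells, and Igf1, a growth factor, in 11.9%, 13.0% and 10.6% of Int3 cells. Cbln1, a synapse organiser, was found in 10.1%, 10.0% and 7.06% of Striatal inh2 cells, and Grp, gastrin-releasing peptide, in 5.92%, 7.84% and 4.19% of LayerII-IV [4-P] cells. In HET 0 of 15 measured pairs of this list were at least 2-fold higher and 2 were lower, and in HOM 0 of 13 were higher and 2 were lower. Over all genes and types 0.654% of pairs were higher and 1.29% lower in HET, and 1.42% higher and 2.89% lower in HOM. Nts, the precursor of neurotensin, was at 64.08 CPM in HET and 29.18 CPM in HOM against 128.5 CPM in WT cells of LayerV-VI [18-P], a log2 ratio of -1.0 and -2.14, and at -1.68 in HOM in Striatal inh2. Edn1 was at -1.18 in HET Endothelial1.

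All 21 genes of peptide processing and secretory granules were in the matrix, and 14 reached 5% of cells in some type. Pcsk1n, the convertase inhibitor, was in 60.6% of HET, 60.1% of HOM and 57.0% of WT Int1 cells, and Cpe, the carboxypeptidase that trims cut peptides, in 70.5%, 63.0% and 59.9% of Astrocytes (immature) 1. Pam, the amidating enzyme, was in 54.0%, 52.9% and 51.2% and Scg5, a chaperone of convertase 2, in 37.2%, 37.7% and 39.1% of SVZ1 cells. Of the measured pairs 1 of 149 was lower in HET (Pam in Ganglionic eminences, -1.19) and 3 of 156 were lower in HOM, Cpd in LayerII-IV [1-P] at -1.06 and Syt4 in Microglia at -1.39 and in Oligodendrocytes at -1.0, with 0 higher in either. Both shares lie below those over all genes.

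Of 23 receptors for peptides of these genes, 18 were in the matrix and 4 reached 5% in a type. Sstr2, a somatostatin receptor, was in 46.7% of HET, 62.7% of HOM and 43.3% of WT SVZ1 cells, Npy1r in 36.2%, 27.4% and 18.5% of Striatal inh2 cells, Prokr2, the receptor of prokineticin 2, in 12.2%, 5.06% and 7.04% of Int4 cells and Oprm1, the mu opioid receptor, in 7.16%, 5.63% and 5.88% of Striatal inh2 cells. In HET 1 of 12 measured pairs was at least 2-fold higher, Npy1r in Striatal inh2 at 1.06. In HOM 3 of 14 were higher, all of them Sstr2, at 1.40 in LayerII-IV [1-P], 1.03 in LayerV-VI [18-P] and 1.02 in Astrocytes (immature) 2, and 0 were lower in either, beside the same shares over all genes. These 3 HOM pairs are 1 gene.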
